A study of Saccharomyces cerevisiae with 19 samples.

Results

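CLIP sequencing of yeast Pcf11, in which RNA crosslinked to a protein is recovered with an antibody and sequenced, gave 212 of 1332 peaks in the first immunoprecipitation (IP 1) and 286 of 1707 in the second (IP 2) that lie on the sense strand of a gene and have at least 0.2 of their length in its 3' UTR. A peak was taken where the authors' deposited peak table assigned it to a gene, did not mark it as antisense and gave a 3' UTR share of 0.2 or more. These 498 peaks, called 3' UTR sense peaks here, made up 15.9% of the peaks of IP 1 and 16.8% of those of IP 2, and belonged to 402 of 5994 coding features (6.71%). The rule used the annotation share of each peak and not its height.

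Pcf11 is a subunit of cleavage factor IA of Saccharomyces cerevisiae, which works with the cleavage and polyadenylation factor to cut a nascent messenger RNA at its 3' end so that a poly(A) tail can be added. It also binds the C-terminal domain of RNA polymerase II and takes part in ending transcription. In yeast the cut is placed by short A- and T-rich elements past the stop codon: an efficiency element, best known as TATATA in DNA letters, a positioning element such as AATAAA further on, and T-rich stretches around the cleavage site. In this yeast the 3' UTRs of most genes are short, and neighbouring genes often lie close together or end against each other on opposite strands.

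The CLIP libraries came from yeast that overexpresses Flag-tagged Pcf11, with 2 IPs made with an antibody to Flag and 2 inputs that the labels call WT. The labels do not say whether the IPs come from separate cultures. RNA sequencing covered 4 altered strains and WT, with 3 biological replicates each, sampled at 36 h. The strain labelled dPcf11 is given as a deletion of the gene, and Pcf11-AARR carries the changes Y575A, E577R, E578R and W582A. Pcf11-OE1 and Pcf11-OE2 overexpress Pcf11, 1 with the TEF1 promoter and GRS1 terminator and 1 with the weaker CDC60 promoter and DIT1 terminator, and the labels do not say which is which. WT is the unaltered strain. The backgrounds S288C and CEN.PK2-1C are named together for every library, and nothing says that a strain was made as more than 1 clone.

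Per library, 25930079 to 45796931 RNA-seq reads were counted on named features, and the authors' deposited table gives 317545 and 512533 reads without duplicates for IP 1 and IP 2. PCF11 itself had 11.8, 12.9 and 12.2 CPM (counts scaled to library depth) in the libraries labelled dPcf11, 20.1, 21.9 and 19.6 CPM in Pcf11-AARR, 610, 566 and 557 CPM in Pcf11-OE1 and 87.6, 66.3 and 70.1 CPM in Pcf11-OE2, against 17.5, 13.9 and 13.9 CPM in WT. Reads on PCF11 were thus present in the libraries labelled as the deletion. Of 6 marker genes of MATa cells, STE2, STE6, MFA2 and BAR1 were called higher than WT in each of the 4 strains and AGA2 lower. MFA1 was called lower in Pcf11-AARR (log2 fold change -0.60) and was not called in the other strains. The summed level of the 6 was 370 to 567 CPM in the libraries labelled dPcf11 and 247 to 325 CPM in Pcf11-AARR. It was 340 to 507 CPM in Pcf11-OE1 and 491 to 603 CPM in Pcf11-OE2, against 246 to 265 CPM in WT. That of 4 MATalpha markers was 105 to 124 CPM in the strains and 98.3 to 112 CPM in WT. Of these 4, STE3 was called higher than WT in each strain (log2 fold changes of 1.22 to 1.60) and MF(ALPHA)1 in all but Pcf11-OE1. SAG1 was called lower in dPcf11 and Pcf11-AARR and higher in Pcf11-OE1, and MF(ALPHA)2 was called in none. None of these 10 genes was at 0 in any library. The part of these differences in the RNA-seq results was not tested.

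The sequences under the summits, the highest point of each peak as deposited, are shown for the oxidative phosphorylation genes that had a 3' UTR sense peak in both IPs, because this list had the largest share of genes with such a peak. Each sequence holds 30 bases centred on the summit, read 5' to 3' on the RNA strand from the RefSeq R64 genome. Capitals mark TATATA (the efficiency element), AATAAA (the positioning element) and runs of 6 T or 6 A.
COX7, IP 1, chrXIII:778989-779018, minus strand: ttgcggtagccgtcgttacaccacttctat
COX7, IP 2, chrXIII:778991-779020, minus strand: ttttgcggtagccgtcgttacaccacttct
COX9, IP 1, chrIV:334268-334297, minus strand: tggggattccacatggataagattaacaag
COX12, IP 1, chrXII:225066-225095, minus strand: ttgttggcaatcttatgtggattatcacaa
ATP18, IP 1, chrXIII:104020-104049, minus strand: ggaatttatcaatgatccaagaaatcccag
QCR9, IP 1, chrVII:859119-859148, minus strand: ggtacgagaatcacaacaaaggaaaattat
QCR9, IP 2, chrVII:858988-859017, minus strand: ctcaagcTATATAagtggcactcgtcttat
ATP14, IP 1, chrXII:722243-722272, minus strand: catacaagatttgtatttgagggaactaaa
ATP14, IP 2, chrXII:721955-721984, minus strand: cctccttgtcgaagAAAAAAcaaacagaac
Of these 9 windows, 1 of QCR9 held TATATA and 1 of ATP14 held AAAAAA. The windows of COX7 in IP 1 and IP 2 overlap in all but 2 bases, whereas those of QCR9 and ATP14 lie before the stop codon in IP 1 and after it in IP 2.

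A further set is shown for peaks whose summit lay past the stop codon in both IPs. PMP3 encodes a small plasma membrane protein, UPS1 a mitochondrial lipid transfer protein and ERV2 a sulfhydryl oxidase of the endoplasmic reticulum.
PMP3, IP 1, chrIV:1013442-1013471, minus strand: attcAATAAAcgaaagtaactatcaaatga
UPS1, IP 1, chrXII:539990-540019, minus strand: ctcagttttgatgttcccatttaaagatct
YER053C-A, IP 1, chrV:260836-260865, minus strand: ttagcgttttactatttacgaagttgatgt
YER053C-A, IP 2, chrV:260902-260931, minus strand: ttaaatcagctaatctgcttactgccgcca
ERV2, IP 1, chrXVI:646023-646052, minus strand: ttgcgtcagagttctttcttgagcttggct
PMP3 held AATAAA in both IPs.

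The 3' UTR sense peaks of IP 1 had heights of 3 to 127 reads with a median of 18, and those of IP 2 had heights of 4 to 478 reads with a median of 18. Height is the highest read depth within a peak. Other sense peaks had median heights of 14 reads in IP 1 and 17 reads in IP 2. The 3' UTR sense peaks were shorter, with median lengths of 439.5 and 495 bases, against 622.5 and 824 bases for other sense peaks. They held 16.2% of all reads in peaks in IP 1 and 18.1% in IP 2. The median 3' UTR share was 0.35 in IP 1 and 0.34 in IP 2, and 141 and 189 peaks covered both coding sequence and 3' UTR. By the deposited shares 28 and 35 peaks lay wholly in a 3' UTR, but 17 and 24 of these were assigned to genes that their summits did not lie within 1000 bases of, YHR214C-E with 14 and 18 among them, which left 11 in each IP. At the threshold, the 7 and 14 peaks with a share of 0.2 had median heights of 19 and 20 reads, and the 9 and 17 peaks with a share of 0.19 had 19 and 23 reads.

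The genes assigned to these peaks were short. Taken over peaks, the median coding length of the assigned gene was 652.5 bases in IP 1 and 648 bases in IP 2. Other sense peaks had 1356 and 1368 bases, and all coding features, each taken once, had 1200 bases. In the medians over peaks a gene enters once per peak, as YHR214C-E (300 bases) did 14 and 18 times. The rule bears on this difference, since the 3' UTR share is taken over the length of the peak and short coding sequences leave more of that length to the UTR. The authors' 3' UTR features also set what counts as reaching the UTR: in 4761 of 5710 genes the feature extended past the stop codon by a median of 448 bases (interquartile range 422 to 476), and 949 genes (16.6%) had no extension. These are extensions of nearly even length and not measured transcript ends.

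The summits showed where on the transcript the peaks stood. Over 50% lay in the gene's own coding sequence, 114 of 212 (53.8%) in IP 1 and 152 of 286 (53.1%) in IP 2, at a median of 92 and 90 bases before the stop codon and at most 887 and 899 bases before it. A summit past the gene's own stop codon by at most 500 bases, and in no other gene of that strand, was found for 42 peaks (19.8%) and 50 peaks (17.5%). A further 42 (19.8%) and 65 (22.7%) summits lay in another coding gene on the same strand. In no gene of that strand and more than 500 bases past the stop codon stood 9 and 12 summits, of which 5 and 10 were within 1000 bases. The label of peaks reaching the 3' UTR thus held for the authors' annotation of the whole peak and for a minority of the summits. Some gene assignments were remote: YHR214C-E, for which the deposited feature has a faulty span, took 14 peaks in IP 1 and 18 in IP 2, at more than 1000 bases from its stop codon. Without all peaks of the genes that had a peak so remote, 194 and 259 peaks remained. Of their summits, 58.8% and 58.7% were in the own coding sequence, 21.6% and 19.3% past the stop codon and 30 and 44 in another gene. This also left out the IP 2 peak of YBL044W, whose summit was 870 bases past its stop codon.

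**Figure D1:**
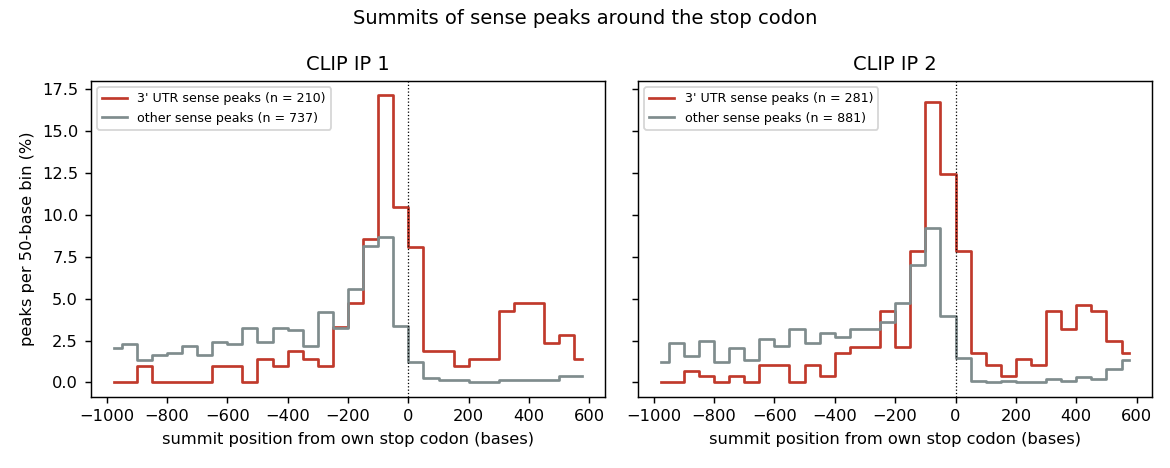
Summit position of sense peaks from the gene's own stop codon (bases, x axis) as percent of peaks per bin of 50 bases (y axis), for 3' UTR sense peaks (red) and other sense peaks (grey) in each IP. The 3' UTR sense peaks pile up just before the stop codon and show a second, lower rise 301 to 500 bases past it, with 34 peaks in IP 1 and 46 in IP 2.

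Within 100 bases of the stop codon stood 79 of 210 summits (37.6%) in IP 1 and 109 of 281 (38.8%) in IP 2, against 13.6% and 14.8% of other sense peaks. This is a description, since the rule picks peaks at gene ends. Past the stop codon the summits were uneven: 12 and 11 stood at 101 to 300 bases, but 34 and 46 at 301 to 500 bases, as the plot of summit positions shows. Of the summits in another gene of the same strand, some were remote, up to 295663 bases past the assigned gene's stop codon in IP 1 and 317348 in IP 2. With these included, the summits in another gene had a median position of 489 and 497 bases past that stop codon. For example, both summits of the AVO1 peak, assigned to a subunit of the TORC2 kinase complex, lay in ATP19, a subunit gene of ATP synthase, with heights of 83 and 112 reads. The YHR050W-A peak, with heights of 73 and 78 reads, stood in COX6, a cytochrome c oxidase subunit gene, and the YNL146W peak, with heights of 83 and 119 reads, in MFA2, which encodes the a-factor mating pheromone.

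Summits of 3' UTR sense peaks also stood opposite a coding gene on the other strand in 19 cases (8.96%) in IP 1 and 19 (6.64%) in IP 2, against 0.8% and 1.33% of other sense peaks. The rule bears on this contrast, since it picks peaks at gene ends. Of other sense summits, 86.9% and 85.0% lay in their own coding sequence. YLR326W had summits of 26 and 25 reads at 432 and 414 bases past its stop codon, where TMA10 lies on the other strand with summits of 111 and 162 reads. ERV2 had summits of 30 and 38 reads at 410 and 421 bases past its stop codon, opposite SPO24. In the inputs, ERV2 had 66 and 40 reads on its sense strand and 426 and 369 on its antisense strand. The summits of IES1, a chromatin remodelling subunit, stood opposite HSP12, a small heat shock protein gene, with 31 and 28 reads. In IP 2, SIR4, a silencing protein gene, had a summit of 20 reads opposite PCF11 itself. Whether such pairs of peaks come from separate RNAs was not tested.

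The IPs overlapped in part. By at least 1 base, 63 pairs of 3' UTR sense peaks overlapped, which is 29.7% of those in IP 1 and 22.0% of those in IP 2. Other sense peaks overlapped at 27.3% and 22.7%, antisense peaks at 19.8% and 13.4%, and intergenic peaks at 22.7% and 16.8%. Counted by gene, 57 genes had a 3' UTR sense peak in both IPs, which is 29.1% of the 196 genes of IP 1 and 21.7% of the 263 genes of IP 2. Without the genes that had a peak over 1000 bases away, 53 genes were left. Shared peaks were taller than those not shared, with median heights of 29 reads for shared and 14 reads for unshared peaks in IP 1, and of 38 and 16 reads in IP 2.

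**Figure D2:**
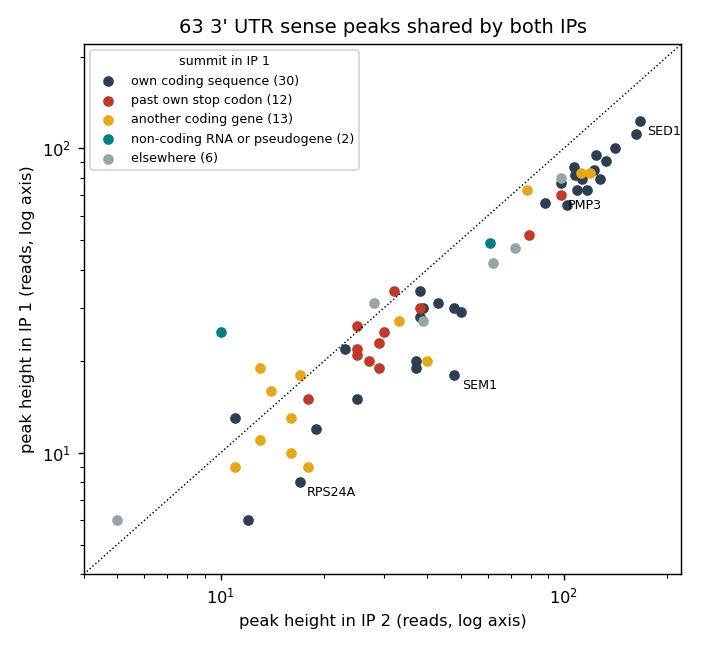
Height of the 63 shared peaks in IP 2 (x axis) and IP 1 (y axis), in reads on log axes, coloured by where the summit lies in IP 1. The dotted line marks equal heights, and 54 of 63 peaks lie on the IP 2 side of it.

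Across the 63 shared peaks, heights in the IPs had a Spearman correlation of 0.926, a description over peaks that share libraries, since peaks of 1 library are not independent samples. The height in IP 2 over that in IP 1 had a median of 1.35 and a range of 0.4 to 2.67, and was above 1 for 54 peaks. IP 2 had 1.61 times the reads of IP 1. The summits of a pair were a median of 20 bases apart, 21 pairs were within 10 bases and 44 within 50 bases. The widest gap was 841 bases. Of the 53 pairs not assigned to a remote gene, 41 had both summits on their own gene or past its stop codon: 26 in the coding sequence in both IPs, 9 past the stop codon in both and 6 with 1 summit in each place. A further 8 had both in another gene.

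The tallest shared peak was on SED1, a major glycoprotein of the cell wall, with 123 reads in IP 1 and 167 reads in IP 2. Its summits lay 161 and 237 bases before the stop codon. TMA10, a ribosome-associated protein gene, followed with 111 and 162 reads. COX7 had 100 and 141 reads with summits 59 and 61 bases before the stop codon, COX9 had 91 and 133 reads with summits 66 and 67 bases before it, and COX12 had 85 and 122 reads with summits 160 and 141 bases before it. YLR307C-A, a gene with no standard name, had 95 and 124 reads and YPR010C-A 87 and 107 reads. MBF1, a transcriptional coactivator, had 82 and 108 reads with a summit at the same base in both IPs, 368 bases before the stop codon. PET9, the main ADP/ATP carrier of mitochondria, had 79 and 127 reads with summits 860 and 861 bases before the stop codon, so its peak reached the UTR although its highest point stood near the start of the gene. QCR9 had 79 and 113 reads, with a summit 71 bases before the stop codon in IP 1 and 60 bases past it in IP 2.

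Among the 9 shared peaks past the stop codon in both IPs, PMP3 was the tallest with 70 and 98 reads, at 19 and 22 bases past it. UPS1 had its summit 4 bases past the stop codon in both IPs, and YER053C-A, a short gene with no standard name, at 82 and 16 bases. DAS1 held 2 such peaks, with summits at 237 and 235 bases and at 421 and 433 bases, and its counted feature overlaps the snoRNAs snR128 and snR190 on the other strand. The other 4 were ERV2, YLR326W, POC4 at 177 and 210 bases, and STE23 at 334 and 322 bases. On the other strand, the feature of ERV2 overlaps SPO24, that of YLR326W overlaps TMA10 and that of STE23 overlaps RPS29A and snR34. EFT1 and EFT2, near-identical copies of the gene for translation elongation factor 2, had summits within 19 bases of the stop codon in both IPs, and reads of these copies may be split between them in ways the files do not state.

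Of the 3' UTR sense peaks, 138 in IP 1 and 208 in IP 2 overlapped no peak of any kind in the other IP, and some of them were tall. In IP 1 these were led by HOR7 with 127 reads, RPL41A with 105, ATP15 with 93, QCR10 with 86 and RPL41B with 80 reads. RPL41A and RPL41B are near-identical copies of a ribosomal protein gene. In IP 2 the tallest peak of the set, with 478 reads, was assigned to YMR182W-A but stood in the snoRNA SNR83, and that of LSG1, with 182 reads, stood in the snoRNA SNR82. CYC1, the gene of iso-1-cytochrome c and a classical model of yeast 3' end formation, had 165 reads in IP 2 with its summit 37 bases before the stop codon. SDH2 with 122 reads, RIP1 with 116 and COX13 with 107 reads, all respiratory chain genes, were also in IP 2 only.

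The gene lists gave the functions of the assigned genes. Of 30 genes of oxidative phosphorylation, which make the respiratory chain and ATP synthase, 17 (56.7%) had a 3' UTR sense peak in either IP, against 6.71% of all coding features, and 6 had one in both: ATP14, ATP18, COX12, COX7, COX9 and QCR9. The 17 genes had a median coding length of 330 bases and the other 13 genes 468 bases. Of 10 histone genes, 4 (40%) had such a peak, with HHT2, a histone H3 gene, in both IPs at 73 and 109 reads. HHT2 has a near-identical copy, HHT1. Plasma membrane transporters and pumps had 6 of 28 (21.4%), translation factors 5 of 27 (18.5%) and cytosolic ribosomal proteins 25 of 138 (18.1%). Of the ribosomal protein genes, 1 (RPS24A) had a peak in both IPs.

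**Figure D3:**
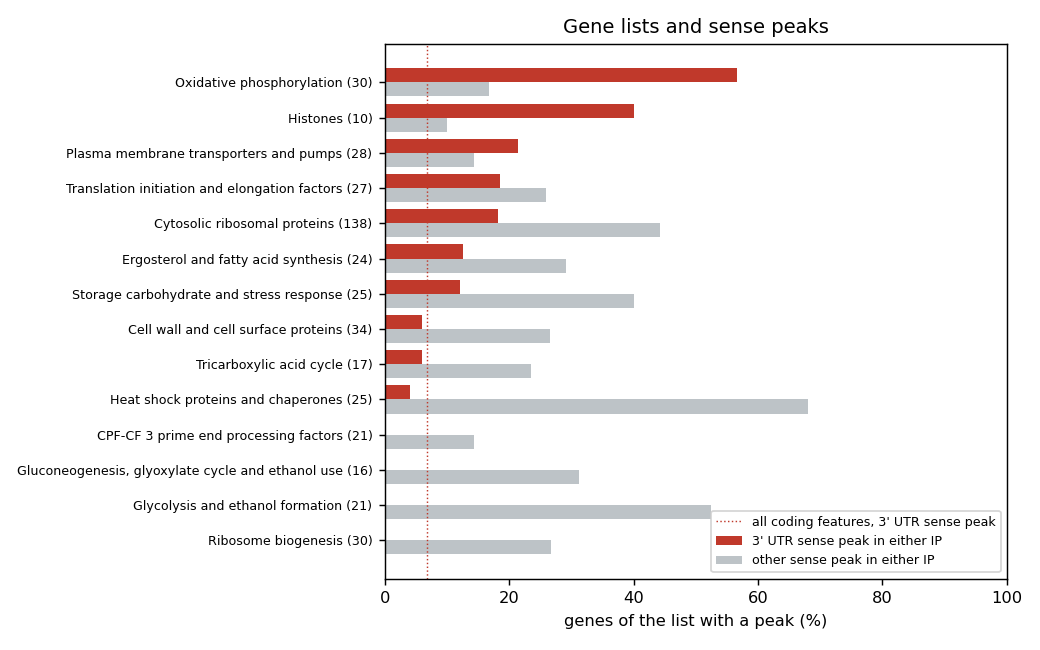
Percent of the genes of each list of 10 or more coding genes (number of genes in brackets) with a 3' UTR sense peak in either IP (red) and with another sense peak in either IP (grey). The dotted line marks the 6.71% of all coding features with a 3' UTR sense peak; the bar of oxidative phosphorylation reaches 56.7%, and the lowest 4 lists have no red bar.

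The other lists had smaller shares of genes with a 3' UTR sense peak. Glycolysis and ethanol formation had 0 of 21 genes with a 3' UTR sense peak and 11 with another sense peak, and its genes had a median coding length of 1458 bases. Heat shock proteins and chaperones had 1 of 25 (SSA2, 4%) and 17 with another sense peak. For other sense peaks, the share of all coding features is not given here. A 3' UTR sense peak was found in 3 of 24 genes (12.5%) of ergosterol and fatty acid synthesis. Storage carbohydrate and stress response had 3 of 25 (12%), and both shares were above the 6.71% of all coding features. The cell wall had 2 of 34 and the tricarboxylic acid cycle 1 of 17 (SDH2), each 5.88% and near that share. None of 21 genes of the cleavage and polyadenylation machinery had one, nor did any of 6 genes of the Nrd1, Nab3 and Sen1 termination pathway, 16 of gluconeogenesis or 30 of ribosome biogenesis; of MATa markers STE2 alone had one, and 0 of 4 MATalpha markers did. The 79 snoRNAs have no coding sequence and no 3' UTR share in the deposited tables, so that the rule could pick none of them. These counts describe the lists and are not a test, since lists differ in gene length and in RNA level.

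The RNA level in the inputs moved with the peaks. Genes with a 3' UTR sense peak in both IPs had median input FPKM (reads scaled for gene length and library depth, as deposited) of 164 and 169, against 79.7 and 79.4 for genes with one in either IP and 58.7 and 59.1 for the 5636 features with a read in both inputs. Genes with other sense peaks in both IPs and no 3' UTR sense peak had 94.7 and 97.7. Over genes whose summits stood on their own gene or past its stop codon, peak height and input sense reads had Spearman correlations of 0.692 (n = 155 genes) in IP 1 and 0.697 (n = 201) in IP 2, again a description over genes of 1 library each. The part of RNA abundance in peak height was not tested, and the inputs are labelled WT while the IPs come from cells overexpressing Pcf11.

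The elements that place the 3' end were searched on the RNA strand. TATATA was present in 49.1% of whole 3' UTR sense peaks in IP 1 and 50.3% in IP 2, against 30.3% and 38.5% of the longer other sense peaks and 60.7% and 62.1% of windows of 438 and 494 bases that follow every stop codon. Right at the summits it was scarce: of the 60-base windows around them, 2.36% and 3.85% held TATATA, against 21.2% of the first 60 bases past all 6008 stop codons and 2.95% of the last 60 coding bases. AATAAA was found in 2.83% and 4.90% of the summit windows. The first 60 bases past all stop codons held it in 11.2% and the last 60 coding bases in 4.34%. At summits that themselves lay past the own stop codon, TATATA was found in 2.38% of 42 windows and 10% of 50 windows. Strings were counted separately, and a window may hold several, overlapping ones included. A match is a string of letters and not a shown site.

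**Figure D4:**
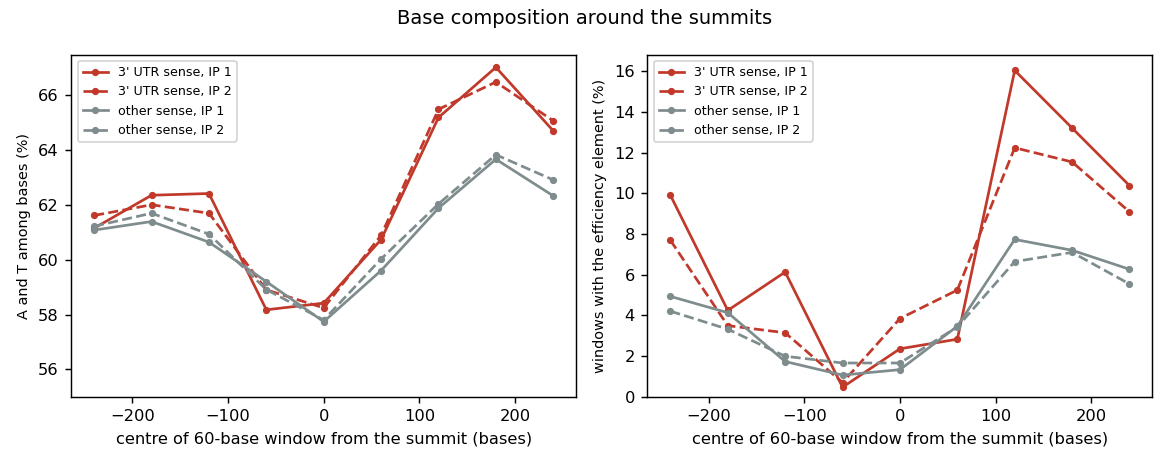
Percent of A and T bases (left, axis from 55) and percent of 60-base windows with TATATA (right, axis from 0) against the distance of the window from the summit in bases, for 3' UTR sense peaks (red) and other sense peaks (grey), with IP 1 as solid and IP 2 as dashed lines. TATATA is lowest just before the summit and reaches 16.0% and 12.2% at 120 bases past it in the 3' UTR sense peaks.

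A and T made up 58.4% and 58.2% of bases in the summit windows of 3' UTR sense peaks, against 69.2% in the first 60 bases past all stop codons and 61.5% in the last 60 coding bases. Moving along the RNA, windows centred 60 bases before the summit held TATATA in 0.472% and 0.699% of peaks, and windows centred 120 bases past it in 16.0% and 12.2%. Other sense peaks had 7.73% and 6.64% at 120 bases past the summit. The share of A and T in the 3' UTR sense peaks was 67.0% and 66.5% at 180 bases past the summit. In both IPs the summits thus stood in sequence less rich in A and T than that downstream of them. Those of other sense peaks did too, with 57.7% and 57.8% at the summit and 63.7% and 63.8% at 180 bases past it. TCTT and GTAA are known as the strings that Nab3 and Nrd1, of the other yeast termination pathway, bind. TCTT was found in 26.4% and 24.8% of the summit windows. It was in 35.0% of the first 60 bases past all stop codons and 23.4% of the last 60 coding bases. GTAA was found in 24.1% and 21.7% of the summit windows, against 27.9% past the stop codons and 25.4% of the last coding bases.

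RNA sequencing gave the levels of the 57 genes with a 3' UTR sense peak in both IPs, all of which were tested. In total RNA of a culture, fewer cells making an RNA and less of it per cell cannot be told apart. In the libraries labelled dPcf11, 38 of 57 genes (66.7%) were called at an edgeR adjusted p under 0.05, 19 higher and 19 lower than WT, against 65.5% of all 6119 features (32.2% higher, 33.2% lower). In Pcf11-AARR 32 genes (56.1%) were called, 13 higher and 19 lower, against 65.5% of all (32.5% higher, 33% lower). In Pcf11-OE1 34 genes (59.6%) were called, 13 higher and 21 lower, against 68.5% of all (35.3% higher, 33.2% lower), and in Pcf11-OE2 31 genes (54.4%), 13 higher and 18 lower, against 65% of all (33% higher, 32% lower). The median log2 fold changes of the 57 genes were -0.05, -0.10, -0.13 and -0.04 in that order of strains, with 0.00220, 0.00980, 0.0253 and 0.00369 for all features. The shares called were near or below those of all features.

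Counted features of these genes often shared sequence with a neighbour: 48 of 57 overlapped another feature, 29 on the same strand and 30 on the opposite one. The share of all features with such an overlap was not computed. The strand setting of the counting is not given in the sources used here, so reads of overlapping features cannot be told apart. The 402 genes with a peak in either IP had 250 called (62.2%) in the libraries labelled dPcf11 and again 250 (62.2%) in Pcf11-AARR. Pcf11-OE1 had 269 (66.9%) and Pcf11-OE2 249 (61.9%), also near the shares of all features. By direction, 147 were higher and 103 lower in the libraries labelled dPcf11, and 127 and 123 in Pcf11-AARR. In Pcf11-OE1 115 were higher and 154 lower, and in Pcf11-OE2 111 and 138. All features had 1972 higher and 2033 lower, 1986 and 2020, 2162 and 2031, and 2021 and 1957 in that order of strains.

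SED1, the gene with the tallest shared peak, was lower than WT in all 4 strains. It had 4206, 3051 and 2934 CPM in the libraries labelled dPcf11 and 1479, 1645 and 1795 CPM in Pcf11-AARR, against 10750, 10489 and 10113 CPM in WT, with log2 fold changes of -1.62 ± 0.18 and -2.67 ± 0.19 (SE; edgeR adjusted p = 1.92e-05 and 6.42e-07). In Pcf11-OE1 it had 4336, 3553 and 3883 CPM and in Pcf11-OE2 5535, 3783 and 4562 CPM, against a WT mean of 10446 ± 326 CPM (SD, n = 3) as scaled in that table, with log2 fold changes of -1.41 and -1.17. No library of the 4 strains reached a WT library. TMA10 was also lower, with 1678, 2387 and 2305 CPM in the libraries labelled dPcf11 and 1646, 1497 and 1022 CPM in Pcf11-AARR, against 5537, 5772 and 5045 CPM in WT (log2 fold changes of -1.36 and -1.97), and -1.86 and -1.58 in Pcf11-OE1 and Pcf11-OE2. YLR326W, whose feature overlaps TMA10 on the other strand, had -1.51, -2.03, -1.72 and -1.50, and its reads cannot be told apart from those of TMA10.

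STF2, which stabilises the inhibitor of mitochondrial ATP synthase, was lowest in the overexpressing strains. It had 449, 456 and 702 CPM in Pcf11-OE1 and 889, 560.0 and 695 CPM in Pcf11-OE2, against a WT mean of 3936 ± 264 CPM (SD, n = 3), with log2 fold changes of -2.88 ± 0.22 and -2.46 ± 0.22 (SE; edgeR adjusted p = 2.55e-06 and 7.19e-06). In the libraries labelled dPcf11 it had 2228 ± 373 CPM and in Pcf11-AARR 1605 ± 357 CPM, against 3937 ± 249 CPM in WT (SD, n = 3 each), with log2 fold changes of -0.82 and -1.29. HHT2 had log2 fold changes of -0.91, -1.16, -0.55 and -0.47 in the libraries labelled dPcf11, Pcf11-AARR, Pcf11-OE1 and Pcf11-OE2, all called. ERV2 had -1.55, -0.79, -0.96 and -0.76, all called, with SPO24 on the other strand of its feature. With LAT1, a subunit gene of pyruvate dehydrogenase, these made 7 of 57 genes (12.3%) called lower in all 4 strains, against 16.6% of the 6095 features tested in both tables. The comparisons share the WT libraries.

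**Figure D5:**
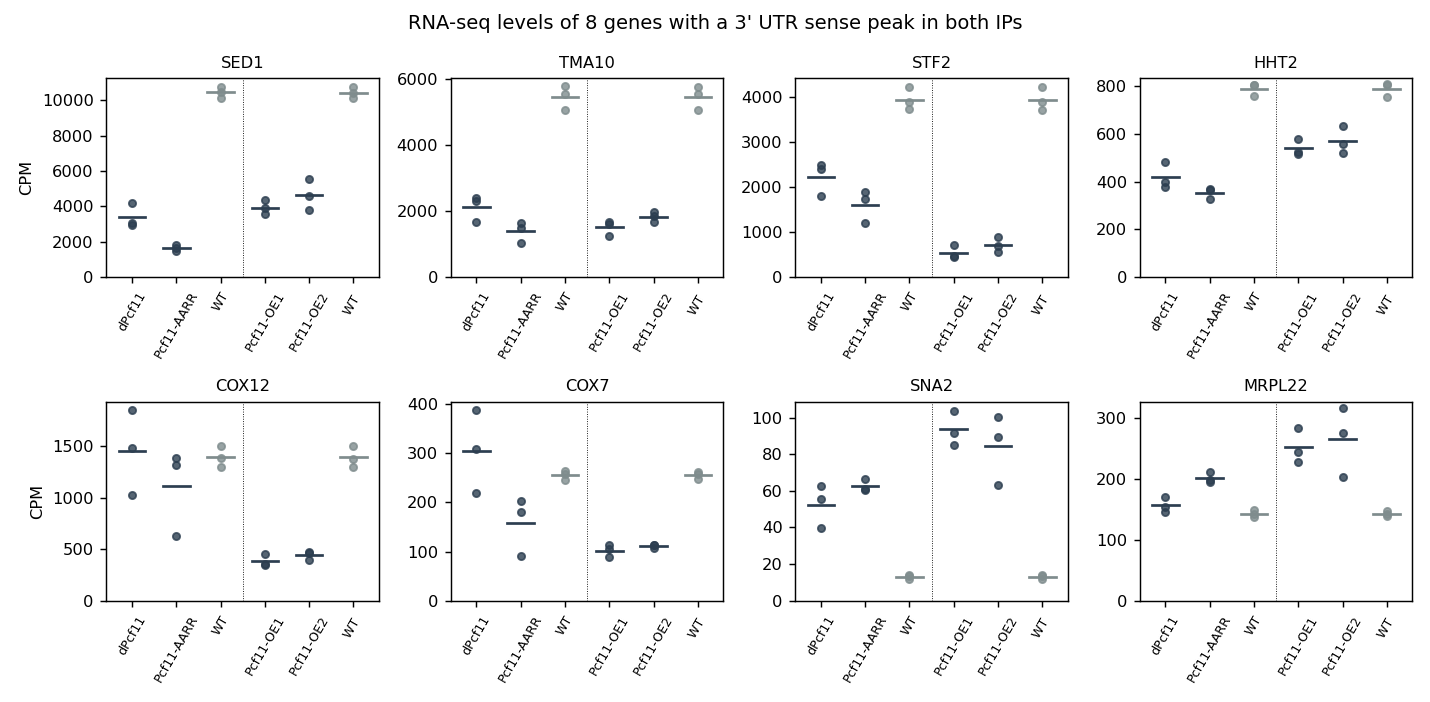
CPM (y axis, from 0) of 8 genes with a 3' UTR sense peak in both IPs, with 1 point per replicate and a bar at the mean of 3, by strain (x axis); the dotted line separates the count tables, which share the WT libraries and were scaled separately. All SED1 libraries of the 4 strains lie below the WT libraries at 10113 to 10750 CPM, and COX12 is below WT in Pcf11-OE1 and Pcf11-OE2, with means of 388 and 443 CPM.

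The 6 oxidative phosphorylation genes with a peak in both IPs did not move together. In the libraries labelled dPcf11, ATP18 rose to 105 ± 21.1 CPM, against 53.9 ± 4.93 CPM in WT, and QCR9 to 394 ± 107 CPM, against 206 ± 21.8 CPM (SD, n = 3 each), with log2 fold changes of 0.96 and 0.93 (edgeR adjusted p = 0.00605 and 0.0124). The other 4 were not called there. In Pcf11-AARR ATP18 was called higher (log2 fold change 0.71) and COX7 lower (-0.69), both near the threshold with edgeR adjusted p of 0.027 and 0.0426, and ATP18 had libraries that overlapped those of WT. In Pcf11-OE1 COX12 fell to 388 ± 60.3 CPM, against 1394 ± 106 CPM in WT, COX7 to 102 ± 12.8 CPM, against 255 ± 7.89 CPM, and QCR9 to 150 ± 11.2 CPM, against 206 ± 21.4 CPM (SD, n = 3 each), with log2 fold changes of -1.84, -1.32 and -0.46. In Pcf11-OE2 COX12 (-1.65) and COX7 (-1.19) fell. COX9 and ATP14 passed the test in none of the 4 strains, with log2 fold changes of -0.16 to 0.19 and -0.14 to 0.29. Of all 30 genes of oxidative phosphorylation, 8 rose and 11 fell in the libraries labelled dPcf11, 5 and 7 in Pcf11-AARR, 4 and 17 in Pcf11-OE1, and 6 and 13 in Pcf11-OE2. These were 26.7, 16.7, 13.3 and 20% of the list higher in that order of strains, against 32.2, 32.5, 35.3 and 33% of all features, and 36.7, 23.3, 56.7 and 43.3% lower, against 33.2, 33, 33.2 and 32% of all features.

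SNA2, which encodes a small membrane protein, had the largest rise in each strain among those of the 57 genes that have a standard name. It had 62.5, 39.5 and 55.5 CPM in the libraries labelled dPcf11 and 61.2, 60.2 and 66.3 CPM in Pcf11-AARR, against 13.9, 11.8 and 13.3 CPM in WT, and 104, 91.6 and 85.1 CPM in Pcf11-OE1 and 63.0, 101 and 89.2 CPM in Pcf11-OE2, against a WT mean of 13.0 ± 1.16 CPM (SD, n = 3). The log2 fold changes were 2.01, 2.27, 2.85 and 2.70, all called, and its feature overlaps RBA50 on the same strand. YNL146W had larger values, 5.86, 4.75, 5.70 and 6.21, but its feature overlaps MFA2, and both features moved alike: MFA2 averaged 188, 87.7, 161 and 227 CPM in the libraries labelled dPcf11, Pcf11-AARR, Pcf11-OE1 and Pcf11-OE2, against 6.33 CPM in WT. YER053C-A rose to 233 ± 32.0 CPM in the libraries labelled dPcf11, against 22.1 ± 5.57 CPM in WT (SD, n = 3 each), with log2 fold changes of 3.40, 1.91, 0.79 and 1.02 in the strains in the same order, all called. MRPS16, a mitochondrial ribosomal protein gene, TIF1, a copy of the gene for initiation factor eIF4A, and YML079W were the others called higher in all 4 strains, which made 6 of 57 genes (10.5%), against 16.8% of the 6095 features.

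Of the 57 genes, YEA4, SEM1 and RPS24A were among those that rose most in the libraries labelled dPcf11. YEA4, a UDP-N-acetylglucosamine transporter gene (log2 fold change 1.52), had its peak summits in another gene. SEM1, a proteasome lid subunit gene, had a log2 fold change of 1.14 there, and RPS24A also 1.14. COX14, an assembly factor of cytochrome c oxidase, fell there (-1.03). In Pcf11-AARR SAP30, a subunit gene of a histone deacetylase complex, rose (0.81), with its peak summits in another gene. MRPS16 (0.60), MRPL22, also a mitochondrial ribosomal protein gene (0.49), and TIF1 (0.28) rose too, while HAC1, the transcription factor of the unfolded protein response, fell (-1.17). In Pcf11-OE1 and Pcf11-OE2 ECM19 (0.89 and 1.01), COA3, another cytochrome c oxidase assembly factor (0.86 and 1.01), and MRPL22 (0.82 and 0.89) rose. STE23, which encodes a protease that matures a-factor, rose in Pcf11-OE1 (0.61), and its feature overlaps RPS29A and snR34 on the other strand. In 9 of the 57 genes the calls went in opposite directions between strains, a difference that was not itself tested: COA2, ECM19, ISD11, PMP3, QCR9, RPS24A, YEA4, YHR050W-A and YLR307C-A. The share of all features with such opposite calls was not computed, so the count cannot be set against it. YLR307C-A was called higher in the libraries labelled dPcf11 (1.94) and Pcf11-AARR (1.79) and lower in Pcf11-OE1 (-1.65) and Pcf11-OE2 (-1.31). RPS24A was called lower in Pcf11-OE1 (-0.75) and Pcf11-OE2 (-0.64), YEA4 was called higher in Pcf11-AARR (0.76) and lower in Pcf11-OE1 (-0.40) and Pcf11-OE2 (-0.38), and ECM19 was called lower in the libraries labelled dPcf11 (-0.52).

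The share of RNA-seq reads in 3' UTRs, in percent as the authors deposited it for 9 libraries, was 8.14, 7.08 and 5.92% in the libraries labelled dPcf11 and 5.55, 6.13 and 6.51% in Pcf11-AARR, against 7.56, 7.12 and 6.72% in WT. The libraries labelled dPcf11 overlapped those of WT, with a difference of -0.0867 percentage points (exact permutation test, two-sided, p = 0.9). Those of Pcf11-AARR all lay below WT, with a difference of -1.07 percentage points. Without pairing, the exact permutation test gave p = 0.1, the smallest that 3 against 3 allows. Same-numbered libraries of these strains deviated together weakly in the gene counts, which does not settle that they are pairs. Paired by replicate number, the differences were -2.01, -0.99 and -0.21 percentage points. The exact paired permutation test, two-sided, gave p = 0.25, the smallest that 3 pairs allow.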

How the data were processed

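Reads were trimmed with fastp 0.23.0, per the submitters' processing notes. For the aligner and the counting tool with its strand setting, the sources used here give no name or version. The authors' peak counts name methods without a version, and the 1332 and 1707 peaks used here match the counts of ablife. Under the same names of IP 1 and IP 2, cims gave 1617 and 2750 peaks and piranha 323 and 477. Peaks of cims and piranha were not used here. The RNA-seq kit keeps strand, per the labels. Peaks were called for each IP separately, per the file headers, and the annotation shares and peak height, a read depth signal with no scaling, are as the authors deposited them. Input FPKM and read counts per gene and strand, the percent of RNA-seq reads in 3' UTRs and 2 tables of raw gene counts were also deposited by the authors. Chromosome names are R64 accessions, per the file headers. The R64 RefSeq annotation, which holds no UTRs, gave stop codons and neighbouring genes. All 498 peaks matched a RefSeq gene by name. For CRF1, that gene lies on another chromosome than its 2 peaks in IP 1 and 5 in IP 2. These peaks have no position from a stop codon and were counted with those over 1000 bases from their gene.

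From these, peaks were placed by summit, and overlap required at least 1 base on the same strand. Strings were searched on the RNA strand in whole peaks and in 60-base windows. The printed windows are centred on the deposited summit and not, as first planned, on the middle of the peak. Deposited counts were tested with edgeR 4.0.16 (R 4.3.3; TMM, filterByExpr, robust quasi-likelihood F test, Benjamini-Hochberg adjusted p under 0.05) with 1 fit for each table, which tested 6119 features in each. Features with no name, 0.87 to 1.39% of counts, were left out. CPM were computed after TMM scaling, and log2 fold changes are strain over WT. DESeq2 1.42.0, other scaling, no filter, a replicate block and leaving out each library were alternatives. Same-numbered libraries of Pcf11-AARR and WT deviated together weakly (correlations of 0.162, 0.188 and 0.247), so that a paired test was added. Libraries with unlike numbers correlated more elsewhere, with 0.628 for dPcf11 1 and Pcf11-AARR 3. Pcf11-OE1 3 and Pcf11-OE2 1 had 0.684. The correlations thus do not settle whether the numbers pair the libraries. The fit was tested on simulated counts. Python 3.11.15 with pandas 2.3.3, numpy 2.4.6, scipy 1.17.1 and matplotlib 3.10.9 did the rest.

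The peaks, the 18 gene lists and the tests were chosen with earlier results of these data known. Named genes are the 12 tallest peaks shared by the IPs (13 with a tie), per comparison up to 5 highest and 5 lowest log2 fold changes among called genes that have a standard name, 10 CPM or more in the higher group, and replicates that did not overlap, and up to 4 per list. Other genes named were chosen after their values were seen. The summit sequences of some peaks are not reported here.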

Additional observations from a re-analysis of the deposited data

How the results depend on the processing

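A 3' UTR share of at least 0.5 left 57 and 78 peaks in IP 1 and IP 2 and 14 genes in both, and any share above 0 gave 558 and 782 peaks and 177 genes. The IPs alone gave 196 and 263 genes. Overlap became 36.7% for peaks of IP 1 at or above the median height of all peaks, and 27.3% for IP 2 against any peak of IP 1. Of only 9 genes with no overlapping feature, 7 (77.8%) were called in the libraries labelled dPcf11 and 4 (44.4%) in Pcf11-OE1, against 65.5% and 68.5% of all features. Of 13 genes with only peaks of 0.5 or more in the UTR, 5 (38.5%) were called in Pcf11-OE1. In 60 bases around the middle of the peak, for IP 1 and IP 2, TATATA was in 1.89 and 1.40%, AATAAA in 2.83 and 3.50%, TTTTTT in 2.36 and 3.15%, AAAAAA in 4.25 and 4.90%, GTAA in 23.6 and 19.2% and TCTT in 22.6 and 23.4%. Around the summit, an alternative chosen after seeing the data, the values were 2.36 and 3.85%, 2.83 and 4.90%, 1.89 and 2.80%, 3.77 and 6.64%, 24.1 and 21.7% and 26.4 and 24.8% in that order. In whole peaks of at least 0.5 UTR share, TATATA was in 26.3 and 37.2%, AAAAAA in 40.4 and 44.9%, AATAAA in 35.9% in IP 2, and TTTTTT in 31.6%, GTAA in 71.9% and TCTT in 82.5% in IP 1. Window length changes by construction here, and the cause of the other shifts was not tested.

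Leaving out each library in turn gave 34 to 38 called genes of the 57 in the libraries labelled dPcf11, 25 to 38 in Pcf11-AARR, 27 to 32 in Pcf11-OE1 and 28 to 38 in Pcf11-OE2. Over all features it gave 3492 to 3956, 3573 to 4008, 3861 to 4070 and 3508 to 4096. With the replicate block, 39, 31, 33 and 31 of the 57 were called, and 3873, 3875, 4131 and 3893 of all features. Outside Pcf11-AARR, same-numbered libraries did not deviate together with those of WT. Their correlations were -0.06, -0.04 and -0.07 for dPcf11, 0.07, 0.06 and -0.01 for Pcf11-OE1 and -0.02, -0.01 and -0.002 for Pcf11-OE2. Of 440 values of 40 named log2 fold changes under alternatives, 439 kept direction and call, and TIF1 in Pcf11-AARR lost its call without WT replicate 2 (0.25).

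The depth of the IPs limits low peaks: heights start at 3 reads, and the 2 IPs allow no test of their difference.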
